A study of Rattus norvegicus with 2 samples.

Results

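Transcripts of 37 autophagy genes were compared between the myocardium of spontaneously hypertensive rats given KXH and that of the same strain given distilled water. The genes were chosen by name as the machinery of autophagy, by a rule that uses no measured value, though earlier results of these data were known when the list was drawn up. Of these, 36 were listed in both protein-coding tables, out of 13706 protein-coding genes listed in either. KXH is the high dose, 9.6 g/kg into the stomach, of Jiangya Kangxian formula, a herbal preparation, and both groups were treated for 12 weeks. All animals were of the spontaneously hypertensive strain, an inbred rat whose blood pressure climbs with age and whose heart enlarges, so both libraries come from hypertensive hearts and no normotensive heart stands beside them. There was 1 library per group, and the labels give neither the animals' age nor how many animals went into a library. Differences between the libraries could therefore not be checked against replicates or tested.

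Autophagy encloses cytoplasm, protein aggregates or whole organelles in a double membrane that fuses with the lysosome, where the content is broken down. A kinase complex starts the process, a lipid kinase complex marks the membrane, and a ubiquitin-like conjugation system ties proteins of the Atg8 family (LC3 and GABARAP) to it, to which cargo receptors bind. In heart muscle, whose cells divide little and are packed with mitochondria, basal autophagy removes worn mitochondria and aggregates, and it is known to respond to pressure load and to nutrient supply. The transcript level of these genes is not a measure of autophagic flux.

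Autophagy transcripts stood at nearly the same level in both libraries. Of the 36 listed genes, 0 passed 1.2-fold upward in the KXH library and 3 passed it downward, namely Atg5, Atg14 and Atg2a. Of the 10467 genes that averaged 1 RPKM or more over both libraries (RPKM, the reads of a gene per kilobase of its length and per 1000000 reads), 7.5% passed this limit upward and 12.1% downward. The 3 of 36 members that were lower make 8.33%, which is not above that background. Of the members, 28 (77.8%) lay within 1.1-fold of the water level, against 56.1% of all genes. Members are more deeply read than most genes, so genes with 1000 reads or more over both libraries were set apart. Of these, 21 of 24 members (87.5%) and 74% of 4619 genes lay within 1.1-fold. Bulk tissue was sequenced, so fewer cells of a type and less RNA per cell cannot be told apart.

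**Figure D1:**
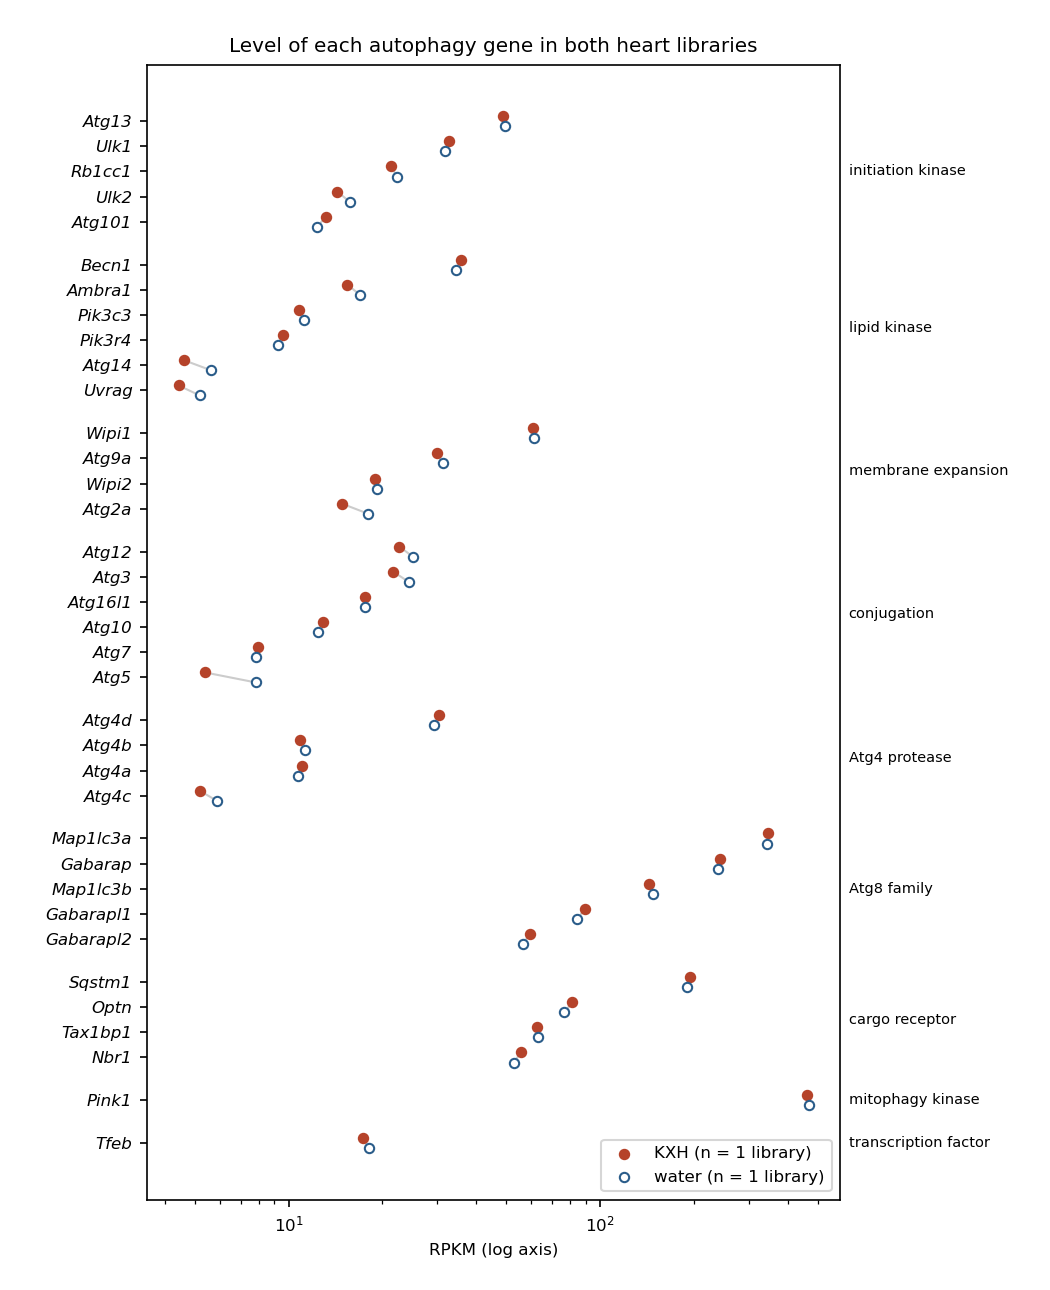
Level of each listed autophagy gene on a log axis of RPKM, ordered by role and within a role by level, with the KXH library as filled points and the water library as open points (1 library each). The points of a gene nearly coincide from Pink1, at 461 RPKM with KXH and 467 RPKM with water, down to the lowest genes, and the widest gaps belong to Atg5, Atg14, Uvrag and Atg2a.

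The levels covered a wide range, in nearly the same order in both libraries. Pink1, the kinase that accumulates on damaged mitochondria and marks them for removal, had the highest level, 461 RPKM in the KXH library and 467 RPKM in the water library. Uvrag, at 4.43 RPKM in the KXH library and 5.18 RPKM in the water library, had the lowest. The highest member thus lay 104 times above the lowest in the KXH library and 90.1 times in the water library. Of the 36 listed members, 25 held the same place in the order of levels in both libraries, and none moved by more than 2 places. Across the members the log2(RPKM + 1) levels of the libraries had a Pearson coefficient of 0.998. That value describes how alike 2 profiles of 36 genes are, and genes are not replicates. The middle member had 21.5 RPKM in the KXH library and 23.3 RPKM in the water library, above the middle of all genes at 12.5 RPKM with KXH and 12.6 RPKM with water, and 27 members lay above that middle.

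Atg2b, a lipid transfer protein that feeds the growing membrane, was listed in neither table and was counted as 0 reads in both libraries. Ttn, which encodes the sarcomere protein titin, was likewise listed in neither, although titin is a major protein of heart muscle. A missing row was therefore not read as lack of expression, and no ratio is given for Atg2b.

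Intervals below are 95% exact (Clopper-Pearson) intervals of the RPKM ratio of KXH over water. They cover counting error only and hold no variation between animals, and since the reads carry no molecular identifiers, copies made in PCR count as if they were separate molecules. By this measure 3 members had an interval above 1 and 6 had one below 1, whereas the shares over all genes were 11.2% above and 16.3% below. In percent the members' counts were 8.33% above and 16.7% below, close to that background in both directions. The median log2 ratio of the members, with 1 RPKM added to each value, was -0.02, and that of all genes was -0.02 as well. A ratio below 1 was found for 21 members (58.3%) and for 55% of all genes. With ratios centred on the median of all genes it was found for 16 members, and with trimmed-mean scaling for 17, so no common direction is given for the members. The members had a robust SD (scaled median absolute deviation) of 0.084 on the log2 scale, against 0.14 for the 8761 genes that had 200 or more reads over both libraries. These sets differ in depth, since 24 of 36 members but 4619 of the 8761 genes had 1000 reads or more. A spread matched for depth was not computed, so no narrower spread is claimed for the members.

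**Figure D2:**
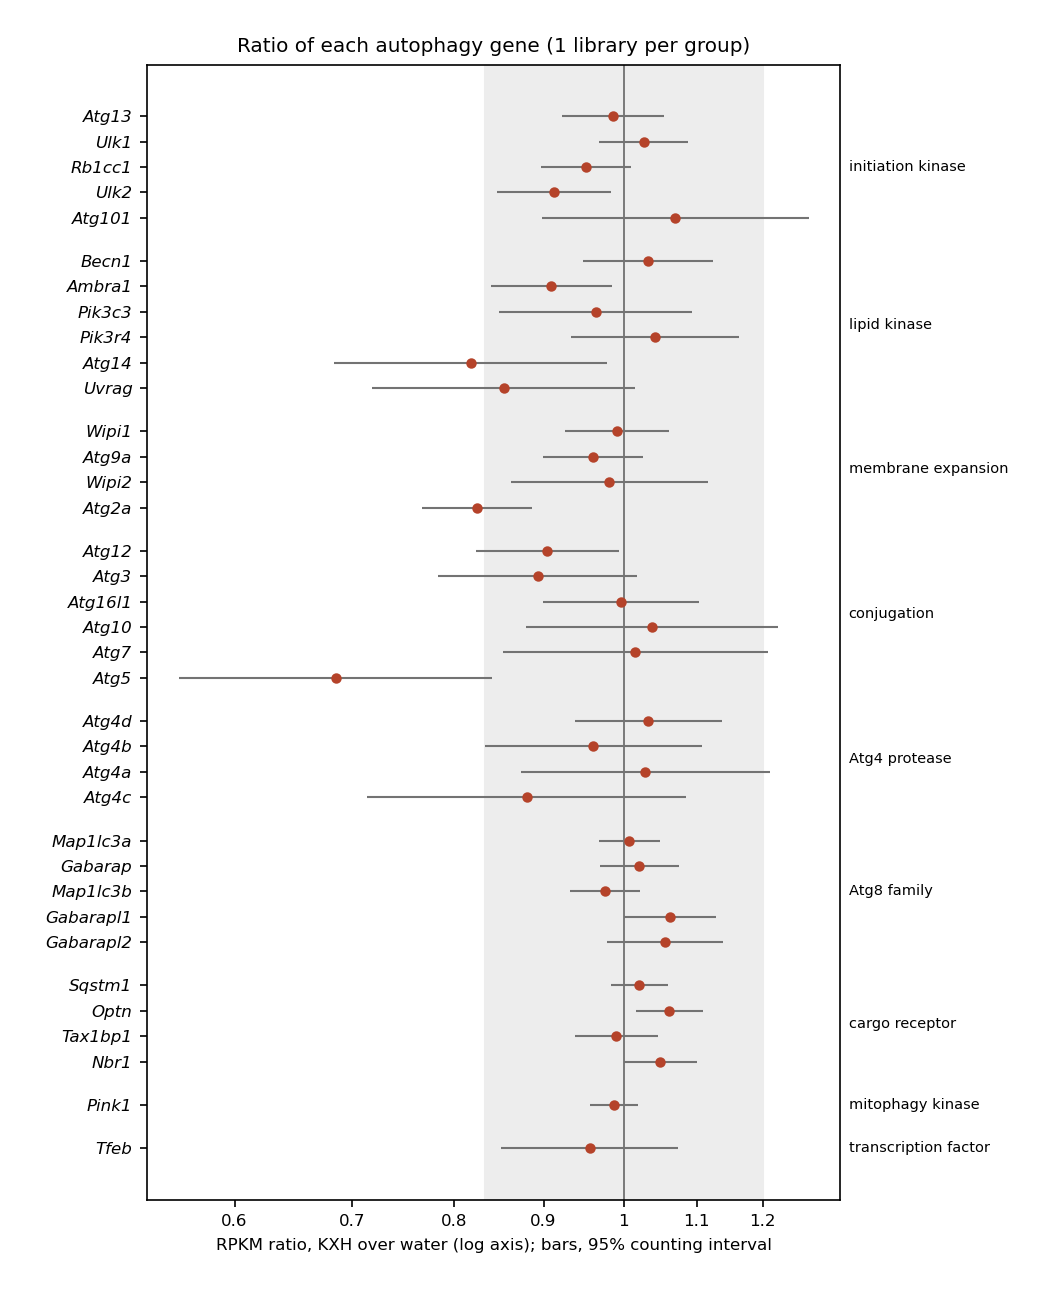
RPKM ratio of KXH over water for each listed autophagy gene on a log axis, with bars for the 95% counting interval, a line at 1 and a grey band for ratios within 1.2-fold. The points of Atg5, Atg14 and Atg2a lie left of the band, none lies right of it, and the intervals of Gabarapl1, Nbr1 and Optn begin just right of 1.

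Initiation begins with the kinase complex of Ulk1 or Ulk2 with the scaffold Rb1cc1 (FIP200) and the subunits Atg13 and Atg101. Atg13 was the most abundant of its parts, at 48.7 RPKM in the KXH library and 49.4 RPKM in the water library. Ulk1, the main initiating kinase, was at 32.7 RPKM in the KXH library and 31.9 RPKM in the water library, a ratio of 1.03 (0.968 to 1.09). Its paralog Ulk2 was at 14.3 RPKM with KXH against 15.7 RPKM with water, 1.1-fold lower (1.02 to 1.18). On the RPKM scale the 2 kinases therefore stood at a Ulk1 to Ulk2 ratio of 2.28 in the KXH library against 2.03 in the water library. Rb1cc1 had a ratio of 0.951 (0.897 to 1.01) and Atg13 one of 0.985 (0.922 to 1.05). Atg101, with 263 reads in the KXH library against 264 in the water library, had the highest ratio of all members, 1.07, and its interval of 0.899 to 1.27 includes 1. All 5 subunits lay within 1.1-fold of the water level.

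The class III lipid kinase complex makes the phosphoinositide that marks the site of the new membrane. Its catalytic subunit Pik3c3 (Vps34) and its regulatory subunit Pik3r4 (Vps15) had ratios of 0.964 (0.849 to 1.09) and 1.04 (0.933 to 1.16). Becn1, the beclin subunit shared by its forms, was at 35.6 RPKM in the KXH library and 34.5 RPKM in the water library, a ratio of 1.03 (0.948 to 1.12). The core of the complex thus showed no difference detectable at this depth.

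Of the subunits that give the complex its form, 1 passed 1.2-fold. Atg14, which directs it to autophagosome formation, had 221 reads in the KXH library against 290 in the water library, or 4.61 RPKM with KXH against 5.63 RPKM with water. It was 1.22-fold lower (1.02 to 1.46). Uvrag, which takes the place of Atg14 in the form that acts on endosomes, had 241 reads with KXH and 303 with water and lay just short of the 1.2-fold line, with a ratio of 0.854 (0.718 to 1.02) that includes 1. Ambra1, a scaffold that links beclin to regulation by ubiquitin, was at 15.4 RPKM with KXH against 17.0 RPKM with water, 1.1-fold lower (1.02 to 1.19). Atg14 and Uvrag stood at nearly equal RPKM levels, with a ratio between them of 1.04 in the KXH library against 1.09 in the water library. Of the 6 genes of this complex, 4 had a ratio below 1, beside the 55% of all genes given above. With the trend on gene length removed, 0 of the 6 passed 1.2-fold, and the intervals of Atg14 and Ambra1 include 1.

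Membrane growth depends on Atg9a, a lipid scramblase carried on small vesicles, on the lipid transfer proteins Atg2a and Atg2b, and on the phosphoinositide readers Wipi1 and Wipi2. Atg2a had 1323 reads in the KXH library against 1723 in the water library, or 14.8 RPKM with KXH against 18.0 RPKM with water, and was 1.21-fold lower (1.13 to 1.30). Of the 3 genes past 1.2-fold it was the one with the most reads and the narrowest interval. Centring on the median of all genes or trimmed-mean scaling brings it within 1.2-fold, with its interval still below 1. Wipi1 was at 60.7 RPKM in the KXH library and 61.2 RPKM in the water library (ratio 0.991, 0.926 to 1.06), and Wipi2 had a ratio of 0.981 (0.862 to 1.12). Atg9a had a ratio of 0.961 (0.900 to 1.03). The intervals of these 3 genes include 1.

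Conjugation joins Atg12 to Atg5 and the Atg8 proteins to lipid, through the activating enzyme Atg7 and the conjugating enzymes Atg10 and Atg3. The Atg12 to Atg5 conjugate binds Atg16l1, which sets where lipidation takes place. Atg5 had the ratio farthest from 1 of all members. It had 157 reads in the KXH library against 246 in the water library, or 5.37 RPKM with KXH against 7.83 RPKM with water, and was 1.46-fold lower (1.19 to 1.79). Reads covered 98.4% of its listed length in the KXH library against 96.9% in the water library, which does not show how evenly they lay along it. Of all 10467 genes, 2.95% had a ratio as low or lower, and of those with 200 or more reads 1.05% did. Atg5 was picked as the lowest of 36 members, so these shares do not make it exceptional.

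The partners of Atg5 differed less from the water level. Atg12 was at 22.6 RPKM in the KXH library and 25.0 RPKM in the water library, 1.11-fold lower (1.01 to 1.21). Atg16l1 had 17.5 RPKM in the KXH library and 17.6 RPKM in the water library (ratio 0.996, 0.899 to 1.1). The RPKM level of Atg12 was 4.22 times that of Atg5 in the KXH library and 3.2 times in the water library, and that of Atg16l1 was 3.26 times that of Atg5 with KXH and 2.25 times with water. Among the enzymes, Atg7 and Atg10 had ratios of 1.02 (0.853 to 1.21) and 1.04 (0.880 to 1.22). Atg3 was at 21.7 RPKM with KXH against 24.2 RPKM with water with a ratio of 0.893, and its interval of 0.783 to 1.02 includes 1. Only Atg5 and Atg12 of these 6 genes had an interval below 1, and for Atg12 it reaches 1 once ratios are centred.

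Tfeb, the transcription factor of lysosomal and autophagy genes, is itself a member. It binds the E-box CACGTG, best as TCACGTG, the core of the CLEAR element. Promoter sequences are therefore shown for the 3 members that were at least 1.2-fold lower and for Atg3, which was not (ratio 0.893) but holds CACGTG. Each is the 100 bases before the annotated start in RefSeq (build GRCr8), on the gene's strand, 5′ to 3′, with each CACGTG in capitals. They lie at chr20:49380735-49380834 (plus strand) for Atg5, chr1:212971722-212971821 (plus) for Atg2a, chr15:23306816-23306915 (minus) for Atg14 and chr11:69159281-69159380 (minus) for Atg3.
Atg5: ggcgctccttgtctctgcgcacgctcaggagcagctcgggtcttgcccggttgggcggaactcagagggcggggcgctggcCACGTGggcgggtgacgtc
Atg2a: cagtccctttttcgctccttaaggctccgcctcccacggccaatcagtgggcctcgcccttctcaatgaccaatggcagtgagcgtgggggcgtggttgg
Atg14: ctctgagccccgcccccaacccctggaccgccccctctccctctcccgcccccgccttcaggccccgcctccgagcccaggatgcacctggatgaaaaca
Atg3: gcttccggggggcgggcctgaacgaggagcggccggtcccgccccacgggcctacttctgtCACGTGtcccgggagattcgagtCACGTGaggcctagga

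Atg5 holds 1 E-box, which begins 19 bases before the start, and Atg3 holds 2, which begin 39 and 16 bases before it, each preceded by the T of the CLEAR core. Pink1, whose E-boxes begin 98 and 161 bases before its start, is not shown. The sequences shown were picked, so they cannot tell whether E-boxes go with lower ratios. In the window of 250 bases before to 50 after the start, which 33 of the 37 members have in the RefSeq table, CACGTG was found for 4 members (12.1%), namely Atg3, Atg5, Atg14 and Pink1, against 7.08% of 27457 genes, both strands searched. TCACGTG, a part of those matches, was found for Atg3 and, past the start and so not shown, for Atg14, 6.06% of members against 3.58% of genes. The core TGACNNNGC of the antioxidant response element was found for 6 members (18.2%; 13.1% of genes) and the FoxO core GTAAACA for 0 members, against 4.13% of genes. The members' promoters had a median of 60.7% G and C over 34 promoters, and all 33469 promoters one of 51.7%. The 4 E-box holders had ratios of 0.685 (Atg5), 0.819 (Atg14), 0.893 (Atg3) and 0.987 (Pink1), all below 1, as were those of 58.3% of members. A link between match and ratio was not tested. A match is a description of the letters and shows no binding.

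Atg4 proteases trim the Atg8 proteins before conjugation and release them from lipid afterwards. Atg4d was the most abundant, at 30.3 RPKM in the KXH library and 29.3 RPKM in the water library, which made 52.9% (KXH) and 51.3% (water) of the RPKM summed over the 4 proteases. Atg4b, known as the most active of the family towards LC3, was at 10.8 RPKM with KXH against 11.3 RPKM with water (ratio 0.961, 0.833 to 1.11). Atg4a had a ratio of 1.03 (0.873 to 1.21). Atg4c, with 168 reads in the KXH library against 205 in the water library, had a ratio of 0.880 (0.713 to 1.08), and reads covered 77.6% of its length in the KXH library against 90.6% in the water library. All 4 intervals include 1, and the summed level was 57.3 RPKM in the KXH library and 57.2 RPKM in the water library.

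The Atg8 family is what the conjugation system attaches to the membrane. Map1lc3a was its most abundant transcript, at 346 RPKM in the KXH library and 343 RPKM in the water library, a ratio of 1.01 (0.968 to 1.05). Gabarap followed at 243 RPKM with KXH against 238 RPKM with water (1.02, 0.969 to 1.07). Map1lc3b, whose protein is the usual marker of autophagosomes, was at 144 RPKM with KXH against 148 RPKM with water (0.976, 0.932 to 1.02). The family kept its make-up, with Map1lc3a at 39.2% of its summed RPKM in the KXH library against 39.5% in the water library, Gabarap at 27.6% with KXH and 27.4% with water, and Map1lc3b at 16.3% with KXH and 17.0% with water.

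The minor members of the family had the higher ratios. Gabarapl1 was at 89.5 RPKM in the KXH library and 84.2 RPKM in the water library, a ratio of 1.06, and its interval of 1.00 to 1.13 begins just above 1. Gabarapl2 was at 59.5 RPKM with KXH against 56.3 RPKM with water, with nearly the same ratio of 1.06 and an interval of 0.978 to 1.14. Of the 5 transcripts, 4 had a ratio above 1, but only 2 did once the trend on gene length was removed, so no direction is given for the family. RefSeq names pseudogene copies for Map1lc3b, Gabarap, Gabarapl2, Sqstm1 and Atg4b, 10 in all, and reads that match a gene and its copy equally can be lost where only unique reads are kept. The levels of these 5 genes are uncertain for that reason.

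Cargo receptors carry ubiquitin-marked proteins and organelles to LC3. Sqstm1 (p62), which gathers aggregates, was at 194 RPKM in the KXH library and 190 RPKM in the water library, a ratio of 1.02 (0.983 to 1.06). Optn (optineurin), a receptor for marked mitochondria and bacteria, was at 81.5 RPKM with KXH against 76.8 RPKM with water, 1.06-fold higher (1.02 to 1.11). Nbr1, which works with p62, was at 55.5 RPKM with KXH against 52.9 RPKM with water, a ratio of 1.05 (1.00 to 1.1). Tax1bp1 was at 62.6 RPKM with KXH against 63.2 RPKM with water (0.990, 0.938 to 1.05). The ratios of the 4 receptors thus lay between 0.990 and 1.06, and the 3 above 1 became 4 with centring, trimmed-mean scaling or the length trend removed. In the GRCr8 annotation 14 members overlap another gene. Optn, Nbr1, Ambra1, Uvrag, Atg7, Atg10 and Tfeb overlap lncRNA genes, and Uvrag also a pseudogene. Becn1, Pik3r4, Wipi1, Atg4d and Gabarapl2 overlap other protein-coding genes, and Rb1cc1 and Atg16l1 overlap other noncoding RNA genes. Reads of an overlapping gene could be counted for these members, since the use of strand is not given.

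Pink1 had 7426 reads in the KXH library against 8079 in the water library and a ratio of 0.987 (0.957 to 1.02), the narrowest interval of any member. Tfeb was at 17.3 RPKM in the KXH library and 18.1 RPKM in the water library, a ratio of 0.956 (0.851 to 1.07). The level of the regulator thus showed no difference detectable at this depth. Tfeb protein is known to be controlled mainly by its place in the cell, which RNA levels do not show.

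**Figure D3:**
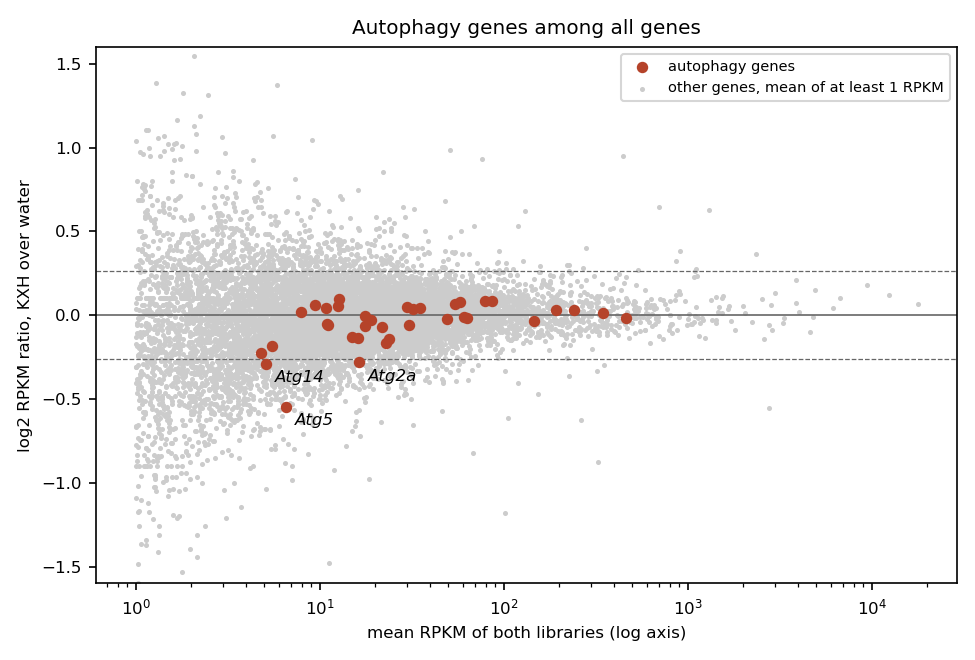
Log2 RPKM ratio of KXH over water against the mean RPKM of both libraries (log axis) for the 36 listed autophagy genes and for other genes averaging 1 RPKM or more, with dashed lines at 1.2-fold; 16 genes beyond 1.6 on the log2 scale are not drawn. The autophagy genes lie inside the cloud of other genes, and Atg5, Atg14 and Atg2a, at low to middling levels, are the ones below the lower dashed line.

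Depth and length differed among the members. The 12 members with fewer than 1000 reads in sum included Atg5, Atg14, Uvrag, Atg4c and Atg3. The other 7 of these 12, namely Atg101, Atg7, Atg10, Atg4a, Atg4b, Pik3c3 and Wipi2, lay within 1.1-fold, beside 56.1% of all genes. The share among all genes with fewer than 1000 reads was not computed. Over the 36 members the Spearman coefficient of length and log2 ratio was -0.34, and over the 8761 genes above it was -0.20, both across genes of 1 pair of libraries. The 12 shortest members, of 824 to 1896 bases, had a median log2 ratio of 0.020, and the 12 longest, of 3103 to 7197 bases, one of -0.062. With the trend of all genes removed these medians were -0.008 and -0.012. Atg5 is then the only member at least 1.2-fold lower, while Atg5 and Atg2a keep an interval below 1. What gave the length trend was not tested.

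**Figure D4:**
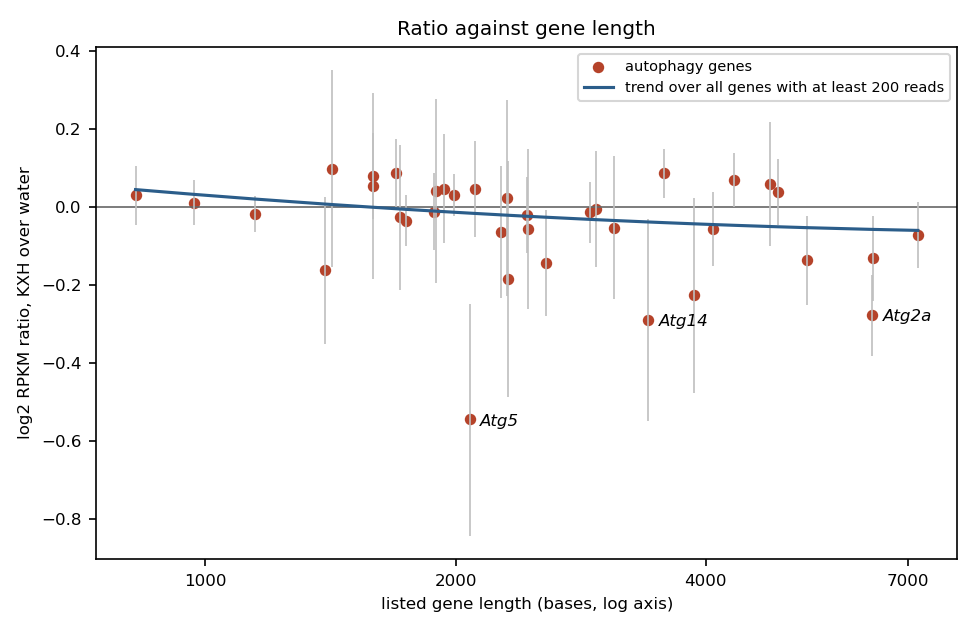
Log2 RPKM ratio of KXH over water of the 36 listed autophagy genes against listed length (log axis), with bars for the 95% counting interval and a line for the quadratic trend over all genes with at least 200 reads. The line falls with length, Atg2a and Atg14 lie among the longer genes, and Atg5, at 2080 bases, lies well below the line.

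Further genes of the pathway, 68 by list and 64 of them averaging 1 RPKM or more, also stood close to the water level. Of these, 1 passed 1.2-fold upward and 1 downward, beside 7.5% and 12.1% of all genes. Within 1.1-fold lay 49 (76.6%), beside 56.1% of all genes and 74% of those with 1000 reads or more. The 64 genes had a median of 23.1 RPKM with KXH, against 12.5 RPKM for all genes, and were not matched for depth. Intervals lay above 1 for 6 (9.38%) and below 1 for 7 (10.9%), beside 11.2% and 16.3% of all genes. The median log2 ratio was -0.006. The gene that was higher is Stbd1, a glycogen-binding receptor, with 272 reads in the KXH library against 232 in the water library, a ratio of 1.26 (1.05 to 1.51). The gene that was lower is Stx17, the syntaxin of the closed autophagosome, with 242 reads in the KXH library against 324 in the water library, 1.25-fold lower (1.05 to 1.48). Both rest on few reads, and no other gene of the 64 passed the limit.

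By role, the other core genes had Wdr45b and Tmem41b at the upper end (ratios 1.18 and 1.11) and Wdr45 and Nrbf2 at the lower end (0.900 and 0.918), of which only Wdr45b had an interval without 1 (1.03 to 1.35). Among the other receptors Tex264, a receptor for the endoplasmic reticulum, had a ratio of 1.14 (1.01 to 1.29), and Wdfy3 and Tollip had ratios of 0.926 (0.889 to 0.964) and 0.927 (0.858 to 1.00). The fusion genes Ykt6 and Vps16 had ratios of 1.13 and 1.09 and Vps33a one of 0.864, all with intervals that include 1. In nutrient signalling, Prkab2, a subunit of the energy sensor AMPK, was at 1.19 (1.03 to 1.38) and the Tfeb relative Tfe3 at 1.09 (0.956 to 1.24). Foxo1 and the mTOR complex subunit Mlst8 were at 0.903 (0.835 to 0.978) and 0.900 (0.782 to 1.04).

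The lysosome, where autophagy ends, showed as little difference. Of 36 measured lysosomal genes, 0 passed 1.2-fold in either direction, beside 7.5% of all genes upward and 12.1% downward. A ratio above 1 was found for 18 and one below 1 for 18, and the median log2 ratio was -0.003. Intervals lay above 1 for 2 of these genes (5.56%, beside 11.2% of all genes) and below 1 for 4 (11.1%, beside 16.3%). The lysosomal genes had a median of 42.8 RPKM with KXH, against 12.5 RPKM for all genes, and these shares were not matched for depth. The proton pump subunit Atp6v0b was at 1.16 (1.01 to 1.33). Ctsz was at 1.12 (0.945 to 1.34), and Ctss and Scpep1 were at 0.894 (0.752 to 1.06) and 0.894 (0.811 to 0.984). The RPKM summed over the list was 2926 in the KXH library against 2965 in the water library.

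The protein-coding tables held 14.1 M reads (M, 1000000) for KXH and 15.1 M for water. Heart muscle markers were abundant in both, led by the cardiac actin Actc1 at 10080 RPKM in the KXH library and 8890 RPKM in the water library, as the labelled tissue calls for. Summed over the list they stood at 45588 RPKM with KXH and 42749 RPKM with water. Of the 11 that averaged 1 RPKM or more, 7 had an interval above 1 and 4 below 1, beside 11.2% and 16.3% of all genes. Past 1.2-fold were 0, beside 7.5% of all genes upward and 12.1% downward. Their reads in sum ran from 20342 (Myl2) to 830857 (Myh6). At such depth even the ratio of Myh6, 0.994, has an interval below 1. Markers of other cells differed between the libraries as well. All 10 endothelial markers (summed level 597 RPKM in the KXH library against 666 in the water library) had a ratio below 1, from 0.816 to 0.986. So did all 7 smooth muscle and pericyte markers that averaged 1 RPKM or more (284 RPKM with KXH, 330 RPKM with water). Their ratios ran from 0.654 (Myh11) to 0.941 (Cspg4), and Rgs5 gave most of their sum (170 RPKM with KXH, 186 RPKM with water, ratio 0.918). Of all genes, 55% had a ratio below 1. Of 8 fibroblast markers, 7 were above 1 (982 RPKM with KXH, 889 RPKM with water), beside 4708 of all 10467 genes. All 6 measured erythroid markers were below 1 (2275 RPKM with KXH, 3343 RPKM with water, nearly all from Hbb at 2234 and 3283 RPKM). Of their intervals 3 lay below 1 and 3 include 1, and Ahsp had a ratio of 0.991. The 10 macrophage markers were divided 5 to 5 (200 RPKM in the KXH library against 199 in the water library). Their intervals lay above 1 for C1qa (ratio 1.14, 1.02 to 1.28) and below 1 for Cd68, and the others include 1. Cd68 had 90 reads with KXH against 168 with water (ratio 0.575, 0.440 to 0.748) and was the only macrophage marker past 1.2-fold. Of lymphocyte markers (23.9 RPKM with KXH, 25.1 RPKM with water) 9 of 10 were listed and 2 averaged 1 RPKM or more, with Cd79a listed in neither table. Most of that sum came from Cd4, at 21.3 RPKM with KXH and 19.8 RPKM with water (ratio 1.08, 0.951 to 1.22). The other of the 2, Nkg7, had 13 reads with KXH against 38 with water (ratio 0.367, 0.180 to 0.705). Of skeletal muscle markers (1146 RPKM with KXH and 1186 RPKM with water, nearly all from Ckm, which heart also expresses) 6 of 8 were listed and 2 averaged 1 RPKM or more, with Myh4 and Tnni2 listed in neither table. The part of these cell types in the lower Atg5, Atg14 and Atg2a was not tested.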

How the data were processed

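Myocardial RNA of 2 libraries, 1 per group, was examined in the protein-coding tables; the lncRNA tables were not used here. Groups were taken from the agent in the labels. Per the file headers, the deposited tables give whole counts of reads described as unique, a percent coverage and RPKM. The counts sum to the total in each heading, and the deposited RPKM equals reads per kilobase per 1000000 of these reads. The submitters' processing notes name Bowtie 0.12.2 and rn6 without a role; which annotation, strand setting and filters the authors used was not given in the sources used here. Per the labels, Trizol extraction and an Illumina TruSeq kit were used on total RNA.

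Genes absent from a table counted as 0 reads. Folds are RPKM ratios of KXH over water with nothing added; medians are of log2 ratios with 1 RPKM added. Genes averaging 1 RPKM or more formed the background. Intervals are 95% Clopper-Pearson intervals on a gene's share of KXH reads, given both totals. With 1 library per group there is no test, and the limit of 1.2-fold only describes these libraries. The steps were tested on simulated data. The members, the gene lists and the limits were chosen with earlier results of these data known. Of the further lists, the 2 highest and 2 lowest genes per role with at least 200 reads were named, with exceptions stated. Symbols were matched to RefSeq tables of GRCr8, another assembly than rn6, used for promoters, overlaps and pseudogene names. Alternatives were other scalings, filters, pseudocounts and folds, the length trend removed, and, added after the data were seen, members without overlaps or pseudogenes. The work was done in Python 3.11.15 with scipy 1.17.1, numpy 2.4.6, matplotlib 3.10.9 and pandas 2.3.3.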

Additional observations from a re-analysis of the deposited data

How the results depend on the processing

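No paired analysis was possible because there is 1 library per group, and leaving out a replicate was not possible for the same reason. The count of 0 members at least 1.2-fold higher held under every scaling, filter and fold tried, from 1.1-fold to 2-fold. That was fixed in advance, since the highest ratio was 1.07 (Atg101) and filters only remove members. The length trend shifts a log2 ratio by 0.061 at most (Rb1cc1) and the scalings by less. The unchanged 0 is therefore no evidence of stability. The count of 3 at least 1.2-fold lower was 2 with centring on the median of all genes and with trimmed-mean scaling (Atg5 and Atg14), and 1 with the length trend removed. At other limits it was 8 at 1.1-fold, 0 at 1.5-fold and 0 at 2-fold. Members with an interval below 1 were 6, or 5 with either scaling, 5 without the 14 members that overlap another gene in GRCr8, and 2 (Atg2a and Atg5) with the length trend removed. Those with an interval above 1 were 3, but 1 (Gabarapl1) without the overlapping members and 4, with Ulk1 added, with the length trend removed. For the intervals, the overlap and length settings were chosen after seeing the data. The members' median log2 ratio ranged from -0.042 (as a mean) to 0.003 (trimmed-mean scaling), so its sign is not settled. Ratios above and below 1 numbered 15 and 21, 20 and 16 with centring, 19 and 17 with trimmed-mean scaling, and 16 and 20 with the length trend removed. The 36 members' own log2 ratios moved by less than their counting error in 180 of 180 recalculations. For the 2 scalings this outcome was fixed, since they shift a log2 ratio by 0.020 at most and the smallest half-width of an interval was 0.046. The count is therefore no evidence that the ratios are stable. Sums over duplicate symbols were not run, since no symbol was listed more than once. Depth limits the members with few reads: the half-width of the interval on the log2 scale ran from 0.046 for Pink1 to 0.30 for Atg4c.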
